A study of Sus scrofa with 8 samples.

Results

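Excitation of the ventricle depends on a small set of membrane proteins, and 8 genes for them were examined in the right ventricle of pigs with and without a constricted pulmonary artery. They were SCN2B, SCN3B and SCN4B, which encode auxiliary beta subunits of voltage-gated sodium channels, GJA1, GJA5 and GJC1, which encode gap junction connexins, and HCN2 and HCN4, which encode pacemaker channels. The rule that sets the genes lists them by name and uses no measured value, and all 8 were matched to a gene model among the 31908 models of the deposited count table. Tissue of the right ventricular free wall came from 8 animals of the breed Yorkshire Cross, 4 controls and 4 with a banded pulmonary artery, and each gave 1 bulk RNA library. The banded animals were castrated male piglets, operated on at 4.5 ± 0.6 weeks of age and 6.4 ± 1.3 kg. Through a left thoracotomy, a tape around the main pulmonary artery was tightened until systolic pressure in the right ventricle peaked at approximately 30 to 40 mmHg. The controls were of similar age and weight, were housed for 8 weeks, and have their treatment given as none. Neither a sham operation nor the sex of the controls is stated, nor is the interval between banding and sampling.

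The upstroke of the cardiac action potential is carried by sodium channels, in which a pore-forming alpha subunit is joined by beta subunits that alter gating and anchor the channel at the membrane. The impulse then passes between cells through gap junctions, built mainly of the GJA1 product in working ventricular muscle, of the GJA5 product in atrium, the ventricular conduction system and arterial endothelium, and of the GJC1 product in nodal tissue and vascular smooth muscle. HCN channels open on hyperpolarisation and carry the pacemaker current, HCN4 being the main form of the sinus node and HCN2 a form also found in ventricular muscle.

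The libraries held 31033679 to 34183338 counts (read pairs assigned to genes). Counts were scaled to a common library size (CPM) by TMM, a method that corrects for differences in RNA composition. A count of 0 allowed up to 0.0843 to 0.104 CPM, taking 3 counts of the scaled total as the limit, which covers counting error only. Markers of ventricular muscle were abundant, with a sum of 37340 to 50540 CPM over 11 matched markers in controls and 45050 to 58470 CPM in banded animals. Leaving out control 1, 2 or 3 lowered the number of genes called changed among the 13697 tested from 954 to 399, 415 and 409. Batch, sex, operation and banding cannot be told apart where they differ between the groups. In bulk tissue, fewer cells of a type and less RNA per cell cannot be told apart either.

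No member was called changed. Of the 8 genes, 4 passed the filter on low counts (GJA1, GJA5, GJC1 and HCN2), and 0 of these 4 were called by edgeR's quasi-likelihood test at an adjusted p under 0.05, where 6.97% of all tested genes were (3.47% higher and 3.5% lower). At an unadjusted p under 0.05 the count was also 0 of 4, against 23.8% of all tested genes. DESeq2 and limma-voom likewise called 0, where they called 1629 of 15766 and 1350 of 13697 genes over the whole table. Calls of other genes are those of edgeR unless another tool is named. Counts called in each list below are to be read beside these shares. The banded and control values of all 4 tested members overlapped, and the groups did not overlap in 15.9% of all tested genes. With only 4 genes tested, 0 calls and 0 separated groups do not set the members apart from these shares. The other 4 members (SCN2B, SCN3B, SCN4B and HCN4) were counted at 0 to 33 read pairs per library and did not enter the test. For SCN2B and SCN3B the gene models limit what could be counted, as described first below.

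The SCN2B and SCN3B models lay almost wholly inside another gene model on the same strand, so their counts cannot be read as their expression. The SCN2B model (ENSSSCG00000021651) lies on the minus strand of chromosome 9 from 45484998 to 45498465 in the pig genome build Sscrofa11.1. Of its 4597 exon bases, 4318 (93.9%) were also exon bases of the model named JAML, an immune cell adhesion gene, which the Ensembl annotation used by the authors runs from 45484999 to 45534863. The SCN3B model (ENSSSCG00000024299) lies on the minus strand of chromosome 9 from 50508198 to 50524628. It shared 4533 of its 4872 exon bases (93.0%) with the model of ZNF202, a zinc finger gene that runs from 50508206 to 50605633 in the same annotation. In the RefSeq annotation of this build, the lower end of JAML lies at 45506496 and that of ZNF202 at 50583590, and the span of 0 other genes reached into either beta subunit model. The counting command names no option for assigning a read pair to more than 1 gene, and by default featureCounts then leaves such a pair uncounted. Over the whole table, only 325 of 31908 models (1.02%) shared at least 90% of their exon bases in this way.

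**Figure D1:**
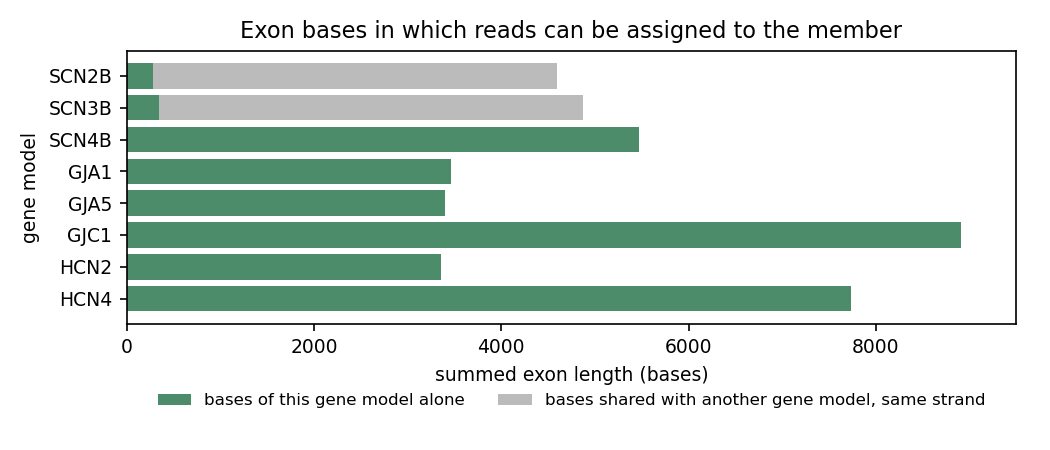
Summed exon length in bases of the 8 member gene models, divided into bases that belong to that model alone and bases shared with another model on the same strand. SCN2B kept 279 unshared bases and SCN3B 339, while the other 6 members shared none.

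What could be counted came from 279 unshared bases of SCN2B, of which 278 form a single stretch, and from 339 unshared bases of SCN3B, of which 331 form a single stretch. SCN2B had 1, 1, 0 and 1 counts in controls 1 to 4 and 0, 0, 0 and 5 in banded animals 1 to 4. SCN3B had 0 counts in all 8 libraries. Set against the unshared bases alone, a count of 0 for SCN3B allowed a level of up to 0.249 to 0.308 RPKM (CPM divided by exon length in kilobases). The models that hold the shared bases were counted in every library, JAML with 81 to 321 counts and ZNF202 with 227 to 717. No fold change is given for SCN2B or SCN3B, since both groups lay near or under the limit of 3 counts. In the authors' deposited table SCN3B has a mean normalised count of 0 and SCN2B one of 1.24, with no adjusted p for either.

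SCN4B, whose beta subunit is linked by a disulphide bond to the alpha subunit, shared no exon base with another model on its strand and was still counted at a very low level. Its model (ENSSSCG00000029199) lies on the minus strand of chromosome 9 from 45451477 to 45479773, 5224 bases from that of SCN2B, with 6 exon blocks and 5466 exon bases. In RefSeq the upper end of the gene lies at 45475606, and whether the counted model holds all its expressed exons was not tested. It had 5, 3, 0 and 4 counts in controls 1 to 4 and 33, 6, 1 and 4 counts in banded 1 to 4. Banded 1 stood alone at 1.04 CPM, and the other 7 libraries, banded and control, lay between 0 and 0.171 CPM. The groups overlapped, and an exact two-sided permutation test on log2 CPM gave p = 0.343, where the smallest p that 70 assignments can give is 0.0286. Without a filter on low counts edgeR gave a log2 fold change of 1.89 ± 1.14 (SE, adjusted p = 0.395) and DESeq2 one of 1.93 ± 1.17 (adjusted p = 0.332). The authors' deposited table, which sets control over banded, gives -2.31 with a standard error of 1.15 and an adjusted p of 0.200. Its unadjusted p for SCN4B, given with a Wald score, is 0.0438.

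Among the other sodium channel genes examined, 5 were tested, the alpha subunit genes SCN2A, SCN3A, SCN4A and SCN9A and the sodium-sensing relative SCN7A. All 5 had a negative log2 fold change, with a median of -0.77 against 0.02 over all tested genes, and edgeR called 0 of them. For these 5 the count was also 0 at an unadjusted p under 0.05 (23.8% of all tested genes), by DESeq2 and by limma-voom. SCN7A was the most abundant, at 6.22, 10.5, 13.7 and 9.71 CPM in controls 1 to 4 and at 11.4, 7.08, 8.90 and 5.35 CPM in banded 1 to 4, and the groups overlapped (log2 fold change -0.29 ± 0.27, SE, adjusted p = 0.558). SCN3A, the next most abundant, was at 1.26 to 2.76 CPM in controls, against 0.626 to 1.61 CPM with banding (-0.77 ± 0.39, adjusted p = 0.258). SCN2A, SCN4A and SCN9A were low, with group means of 0.205 to 0.956 CPM. The standard errors of their log2 fold changes were 0.51 to 0.59, so their negative signs rest on few counts.

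GJA1, which encodes the main ventricular connexin (Cx43), was the most abundant member in every library. Its model (ENSSSCG00000004241) lies on the minus strand of chromosome 1 from 40988515 to 41002137, with 3 exon blocks. Controls 1 to 4 held 234, 275, 237 and 271 CPM and banded 1 to 4 held 226, 234, 237 and 354 CPM. Banded 1 to 3 lay within or just below the control range, and banded 4 lay above all other libraries. The group means were 254 ± 21.7 CPM without and 263 ± 61.1 CPM with banding (SD, n = 4), and the variation between animals was 8.54% of the mean in controls and 23.3% in banded animals. The log2 fold change was 0.05 ± 0.17 (SE, adjusted p = 0.899), and its 95% interval of -0.32 to 0.41 corresponds to 0.803 to 1.33 times the control level. Without banded 4 it was -0.13 (adjusted p = 0.604), and the sign also turned with library size alone (-0.060) and in limma-voom (-0.007). The exact permutation p was 0.914.

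GJA5, the connexin gene of conduction fibres, atrium and arterial endothelium (Cx40), varied more between animals. Its model (ENSSSCG00000006696) lies on the plus strand of chromosome 4 from 99854392 to 99871288, with 3 exon blocks. It was at 23.0, 17.0, 22.8 and 16.4 CPM in controls 1 to 4 and at 17.1, 14.4, 28.1 and 34.9 CPM in banded 1 to 4. Banded 3 and 4 lay above every control and banded 2 lay below every control, so the banded animals spanned the whole control range. The means were 19.8 ± 3.60 and 23.6 ± 9.58 CPM (SD, n = 4). The log2 fold change was 0.25 ± 0.27 (SE, 95% interval -0.33 to 0.84, adjusted p = 0.610), and the exact permutation p was 0.571. It was 0.007 without banded 4 and -0.029 in limma-voom with quality weights.

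GJC1, the connexin gene of nodal tissue and vascular smooth muscle (Cx45), was the steadiest of the tested members among banded animals. Its model (ENSSSCG00000021306) lies on the plus strand of chromosome 12 from 18526068 to 18560220, with 6 exon blocks. Controls 1 to 4 held 10.8, 8.18, 12.7 and 13.4 CPM and banded 1 to 4 held 13.2, 11.5, 12.8 and 11.0 CPM, all 4 of the latter within the control range. The log2 fold change was 0.10 ± 0.18 (SE, 95% interval -0.28 to 0.49, adjusted p = 0.769) and the exact permutation p was 0.543. Without control 2, the lowest library, it was -0.023.

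**Figure D2:**
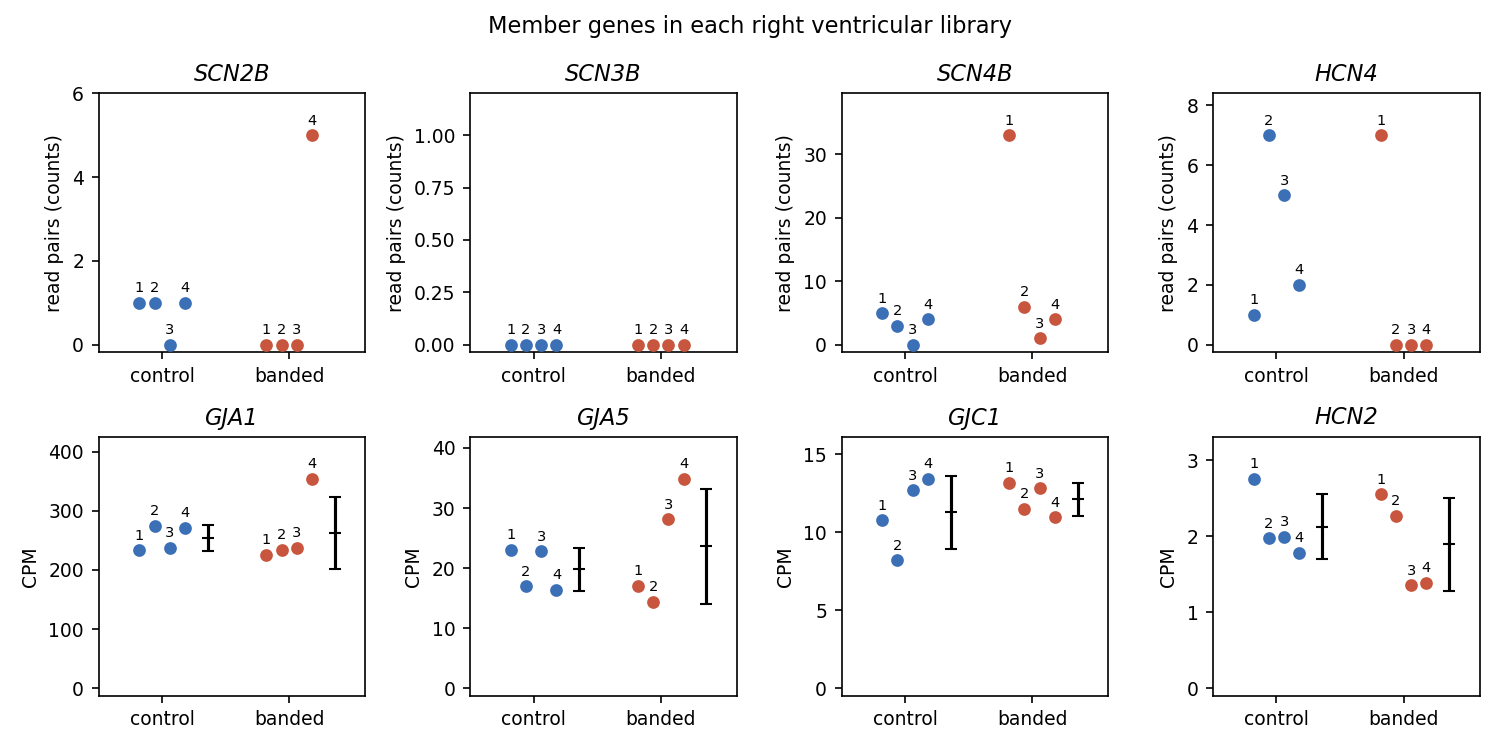
Level of the 8 members in each library, as read pairs for the 4 members below the filter (top) and as TMM-scaled CPM for the 4 tested members (bottom), with animals numbered 1 to 4 within a group and black bars for the mean ± SD. Banded 1 is highest for SCN4B (33 counts), and banded 4 for GJA1 (354 CPM) and GJA5 (34.9 CPM).

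The make-up of the 3 connexin transcripts, scaled by exon length, was alike in its range in both groups. GJA1 made up 89.4% to 93.1% of their summed RPKM in controls and 87.6% to 92.4% in banded animals. GJA5 made up 7.32% ± 1.78 in controls, against 8.11% ± 2.12 with banding, with the highest share in banded 3 (10.6%). GJC1 made up 1.58% ± 0.351 and 1.69% ± 0.423 (SD, n = 4). These shares are a description and carry no test.

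HCN2, the pacemaker channel gene among the tested members, was low but present in every library. Its model (ENSSSCG00000033442) lies on the minus strand of chromosome 2 from 77708161 to 77730881 and overlaps exons of POLRMT, which is on the other strand and was therefore counted apart. It was at 2.76, 1.97, 1.99 and 1.78 CPM in controls 1 to 4 and at 2.56, 2.28, 1.36 and 1.39 CPM in banded 1 to 4. Banded 3 and 4 lay below every control, while banded 1 and 2 lay within the control range. The log2 fold change was -0.16 ± 0.32 (SE, adjusted p = 0.805) with a 95% interval of -0.86 to 0.53, the widest of the tested members, and the exact permutation p was 0.486. It had 40 to 94 counts per library.

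HCN4, the main pacemaker channel gene of the sinus node, was at or near the limit of detection. Its model (ENSSSCG00000001920) lies on the plus strand of chromosome 7 from 60010482 to 60053823, with 8 exon blocks and no base shared with another model on its strand. It had 1, 7, 5 and 2 counts in controls 1 to 4, and 7, 0, 0 and 0 in banded 1 to 4. Thus 3 of 4 banded libraries had no count and banded 1 equalled the highest control. The exact permutation p was 0.229, and without a filter edgeR gave a log2 fold change of -0.95 ± 1.48 (SE, adjusted p = 0.750).

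The order of the members by length-scaled level was GJA1 (65.1 to 102 RPKM over the 8 libraries), GJA5 (4.24 to 10.3 RPKM), GJC1 (0.917 to 1.504 RPKM) and HCN2 (0.406 to 0.822 RPKM). The ranges of these 4 genes did not overlap. SCN4B (0 to 0.191 RPKM) and HCN4 (0 to 0.0286 RPKM) lay below the lowest library of HCN2 and overlapped each other.

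**Figure D3:**
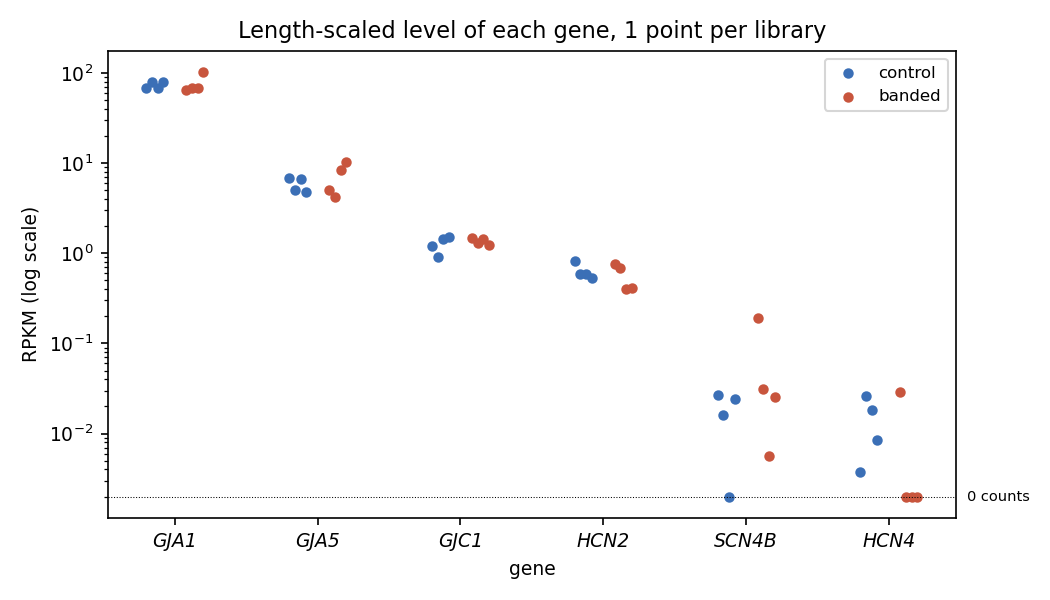
RPKM (log axis) of 6 members, with 1 point per library and libraries without a count drawn on the dotted line. GJA1 lies at 65.1 to 102 RPKM, above every other gene, and SCN4B and HCN4 lie at or below 0.191 RPKM.

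Among 14 other connexin genes examined, 2 passed the filter (GJA4 and GJC3) and 7 had 0 counts in all libraries. GJA4, an arterial endothelial connexin, was the most abundant of them at 20.4 ± 3.45 CPM without and 20.8 ± 6.22 CPM with banding (log2 fold change 0.03 ± 0.21, adjusted p = 0.950). Its sign turned in limma-voom (-0.20), with library size alone (-0.094), without control 4 (-0.076) and without banded 3 (-0.19). EdgeR called 0 of these 2, with 0 at an unadjusted p under 0.05, and limma-voom called 0. DESeq2, which kept more low-count genes, called GJD4, named here after its values were seen, with 0, 2, 2 and 1 counts in controls 1 to 4 and 11, 11, 18 and 3 in banded 1 to 4 (log2 fold change 3.16 ± 1.11, adjusted p = 0.0449). Those groups did not overlap, by 2 counts in the highest controls against 3 in banded 4. All controls lay under the limit of 3 counts, and GJD4 did not pass the edgeR filter. Its counts lay almost wholly in the banded group, so the DESeq2 call is listed only and not read as a change.

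Among genes that work with HCN channels, PEX5L was lower in every banded animal. PEX5L encodes an auxiliary subunit that controls the trafficking of HCN channels and their response to cyclic AMP. It fell from 3.56 ± 0.813 CPM in controls to 0.858 ± 0.253 CPM in banded animals (SD, n = 4, log2 fold change -2.05 ± 0.32, edgeR adjusted p = 0.00457). Controls held 2.93, 4.52, 2.84 and 3.93 CPM and banded animals 0.632, 1.11, 0.649 and 1.04 CPM, so the groups did not overlap. Of 5 tested genes of the pacemaker and T-type channel list, 1 was called, PEX5L, where edgeR called 6.97% of all tested genes. CACNA1G, a T-type calcium channel gene, was at 1.49 to 2.29 CPM in controls, against 2.84 to 4.20 CPM with banding, without being called by edgeR (log2 fold change 0.86, adjusted p = 0.0763), although DESeq2 called it (0.0316). HCN3, another pacemaker channel gene, was at 0.561 to 1.89 CPM and was not called.

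Of 16 tested sodium channel partners, edgeR called 1 higher and 2 lower, where it called 6.97% of all tested genes. DESeq2 and limma-voom called 3 each, where they called 1629 of 15766 and 1350 of 13697 genes over the whole table. At an unadjusted p under 0.05 in edgeR the count was 5 of 16, against 23.8% of all tested genes. CAV3, the muscle caveolin, rose to 169 ± 24.9 CPM from 110 ± 7.89 CPM (log2 fold change 0.61 ± 0.14, adjusted p = 0.0230). ANK2, an ankyrin that anchors ion transporters, fell to 40.5 ± 8.17 CPM from 62.7 ± 7.53 CPM (-0.63 ± 0.15, adjusted p = 0.0327). CAMK2D, a calcium-dependent kinase that phosphorylates the cardiac sodium channel, fell to 328 ± 28.0 CPM from 465 ± 41.8 CPM (-0.50 ± 0.13, adjusted p = 0.0455). These calls were near the threshold. That of CAMK2D ended without any 1 of the 8 libraries (adjusted p 0.0579 to 0.143) and without a filter on low counts (0.0664), that of ANK2 without control 1, 2 or 3 or banded 1, 2 or 4 (0.0622 to 0.110), and that of CAV3 without control 1, 2 or 3 (0.0714 to 0.0836). YWHAH, a 14-3-3 protein gene and the most abundant partner per length (92.3 RPKM), was at 153 ± 13.0 and 158 ± 65.8 CPM (adjusted p = 0.945).

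Of 18 tested genes for connexin trafficking and junction scaffolds, edgeR called 1 higher and 0 lower, where it called 6.97% of all tested genes. DESeq2 called 3 and limma-voom 2, and 4 of the 18 were at an unadjusted p under 0.05 in edgeR (23.8% of all tested genes). The median log2 fold change was 0.05 (-0.05 with library size alone and -0.03 in limma-voom). CTTN, the actin-binding protein cortactin, rose to 95.03 ± 8.68 CPM from 66.9 ± 7.36 CPM (log2 fold change 0.51 ± 0.13, adjusted p = 0.0370). That call ended without any 1 library except banded 1 (adjusted p 0.0508 to 0.122) and with library size alone (0.136). CAV1, a caveolin gene and the most abundant of the list per length (48.4 RPKM), was at 74.1 ± 10.3 and 73.4 ± 5.12 CPM (adjusted p = 0.961). Among 19 tested genes of intercalated disc adhesion, the structure in which gap junctions and sodium channels lie, 2 were called higher and 1 lower. Over all tested genes the share called was 6.97%. DESeq2 and limma-voom called 3 each, and 10 of the 19 were at an unadjusted p under 0.05 in edgeR, against 23.8% of all tested genes. ITGA7, which encodes a laminin receptor of striated muscle cells, rose to 378 ± 73.1 CPM from 176 ± 21.7 CPM (log2 fold change 1.10 ± 0.17, adjusted p = 0.00363). DSC2, a desmosomal cadherin, fell to 48.3 ± 7.05 CPM from 70.5 ± 8.01 CPM (-0.54 ± 0.14, adjusted p = 0.0420), and missed the threshold without control 1, 2 or 3 or banded 1, 2 or 3 (0.0628 to 0.128). XIRP2, an actin-binding disc protein gene, rose to 353 ± 324 CPM from 40.0 ± 17.5 CPM (3.14 ± 0.69, adjusted p = 0.0392), and its call ended without any 1 control or without banded 2 (0.0755 to 0.109), with library size alone (0.0664) and without a filter (0.0812). Without banded 3, the highest library for XIRP2, the log2 fold change was 2.29.

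Of 20 tested transcription factor genes of the conduction system, edgeR called 0 higher and 2 lower, where it called 6.97% of all tested genes. DESeq2, which added ID2, and limma-voom called 3 each, and 5 of the 20 were at an unadjusted p under 0.05 in edgeR (23.8% of all tested genes). A negative log2 fold change was found for 15 of the 20 (16 with library size alone), with a median of -0.28 against 0.02 over all tested genes. TBX3, a repressor that marks nodal and proximal conduction tissue, fell to 5.397 ± 1.51 CPM from 18.6 ± 6.76 CPM (log2 fold change -1.79 ± 0.30, adjusted p = 0.00704). The groups did not overlap for TBX3. MEF2A, a muscle transcription factor, fell to 50.8 ± 10.5 CPM from 77.4 ± 6.59 CPM (-0.61 ± 0.16, adjusted p = 0.0392). Its call ended without control 1, 2 or 3 or banded 1, 3 or 4 (0.0514 to 0.117), with upper-quartile scaling (0.0511) and with library size alone (0.0580).

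**Figure D4:**
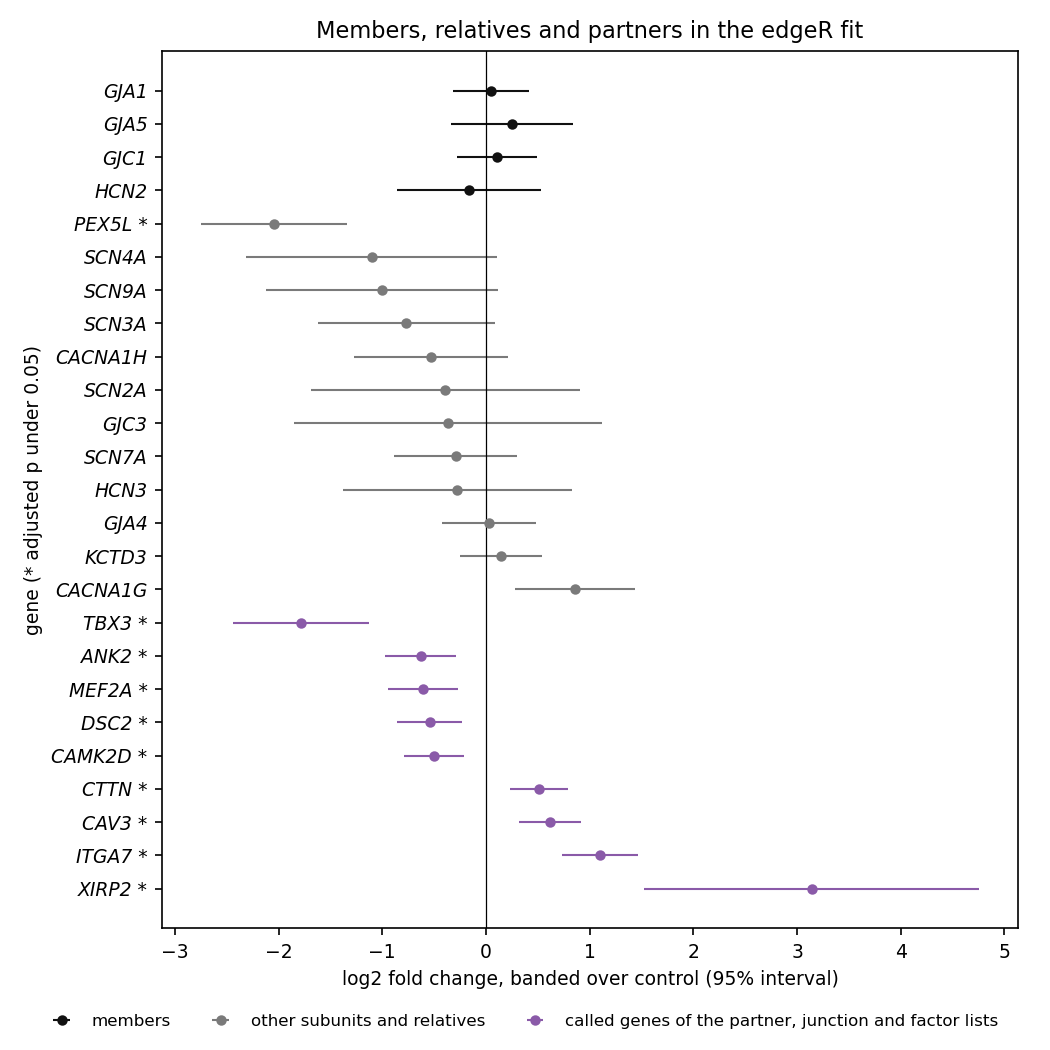
Log2 fold change of banded over control with its 95% interval for the 4 tested members (black), other tested subunits and relatives (grey) and the called genes of the partner, junction and transcription factor lists (purple), with an asterisk at an adjusted p under 0.05. The intervals of the 4 members cross 0, while PEX5L (-2.05) and TBX3 (-1.79) are the deepest falls.

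Banded 1, the animal with most SCN4B and HCN4, was also set against markers of conduction and atrial tissue, which express both genes. The 12 ventricular conduction markers summed to 1069 CPM in banded 1, 643 to 933 CPM in the other banded animals and 852 to 1054 CPM in controls. Most of that sum was PCP4 and IGFBP5. Single markers differed in direction in banded 1. CPNE5 (3.63 CPM) and PCP4 (628 CPM) were highest there of all 8 libraries. IGFBP5, ETV1 and NTM were highest there among banded animals but lay within the control range. IRX3, SLIT2 and KCNJ3 in banded 1 lay between the values of other banded animals. CNTN2 and RYR3 had 0 counts in banded 1, and CACNA1G was lowest there among banded animals. CNTN2, a defining marker of ventricular conduction cells, was at 0.0284 to 0.464 CPM in banded 2 to 4 and 0.293 to 1.59 CPM in controls. Its value in banded 2 lay under the limit of 3 counts. KCNJ5, a potassium channel gene of atrial and nodal cells and the only marker of the 12 that edgeR called (3 by DESeq2 and 1 by limma-voom), was at 24.5 CPM in banded 1, while banded 2 to 4 lay at 3.90 to 5.41 CPM and controls at 62.4 to 86.3 CPM (adjusted p = 0.0389). Its call ended without any 1 library except banded 1 (0.0709 to 0.0999) and without a filter (0.0806), and without banded 1 its log2 fold change was -4.07 against -2.99. The 10 matched atrial markers summed to 555 CPM in banded 1 against 732 to 744 CPM in the other banded animals and 386 to 466 CPM in controls. Of 9 tested, edgeR called 2 higher and 2 lower (5 called by DESeq2 and 3 by limma-voom), where it called 6.97% of all tested genes. At an unadjusted p under 0.05 in edgeR the count was 5 of 9, against 23.8% of all tested genes. Most of the atrial sum was PAM, which rose (299 ± 24.1 against 497 ± 62.1 CPM, adjusted p = 0.0116), and BMP10, a defining atrial marker, had 0 counts in all libraries. The part of conduction or atrial tissue in the counts of SCN4B and HCN4 was not tested.

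GJA5 and GJC1 are also expressed in vessels, so vascular markers stand beside them. The 11 arterial endothelial markers summed to 464 to 627 CPM in controls and 369 to 528 CPM in banded animals. The log2 fold change was negative for 9 of them and positive for 2, with a median of -0.31 against 0.02 over all tested genes. EdgeR called 1 lower, SOX17, an arterial transcription factor (21.3 ± 7.47 to 9.52 ± 3.38 CPM, adjusted p = 0.0486). That call ended without any 1 library (0.0511 to 0.133), with median-of-ratios scaling (0.0512) and without a filter (0.0756). The 12 pan-endothelial markers summed to 1105 to 1279 CPM and 1065 to 1173 CPM. Of these, 9 had a negative and 3 a positive log2 fold change, with a median of -0.21. EdgeR called 1 lower, EMCN (62.0 ± 2.96 to 41.7 ± 5.53 CPM, adjusted p = 0.0207, lost without control 1, 2 or 3 or banded 1 at 0.0507 to 0.0747). The 12 smooth muscle and pericyte markers summed to 1183 to 1541 CPM in controls and 978 to 2499 CPM in banded animals. The 2499 CPM was banded 3 alone, and banded 1, 2 and 4 lay at 978 to 1318 CPM. The log2 fold change was negative for 9 of these markers and positive for 3, with a median of -0.43. EdgeR called 0, but 7 were at an unadjusted p under 0.05, against 23.8% of all tested genes. DESeq2 called 5 and limma-voom 1. Markers of fibroblasts, which also carry GJA1, summed to 6426 to 8720 CPM and 5648 to 8787 CPM. Of the 12 tested, 2 were called higher and 1 lower (5 called by DESeq2 and 4 by limma-voom), where edgeR called 6.97% of all tested genes. At an unadjusted p under 0.05 in edgeR the count was 6 of 12, against 23.8% of all tested genes. PI16, a marker of adventitial fibroblasts, rose to 203 ± 45.5 CPM from 46.6 ± 10.0 CPM (adjusted p = 0.000315). The part of these cells in the connexin values was not tested.

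The authors' deposited table likewise gives no member an adjusted p under 0.05. As control over banded, its log2 fold changes were -0.09 for GJA1 (standard error 0.180, adjusted p = 0.833), -0.16 for GJA5 (0.284, adjusted p = 0.814), -0.08 for GJC1 (0.216, adjusted p = 0.897) and 0.03 for HCN2 (0.352, adjusted p = 0.974). For HCN4 the authors' deposited table gives 0.58 with a standard error of 1.71 and an adjusted p of 0.901. The authors' deposited table has 14099 genes with an adjusted p, of which 1489 are under 0.05.

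**Figure D5:**
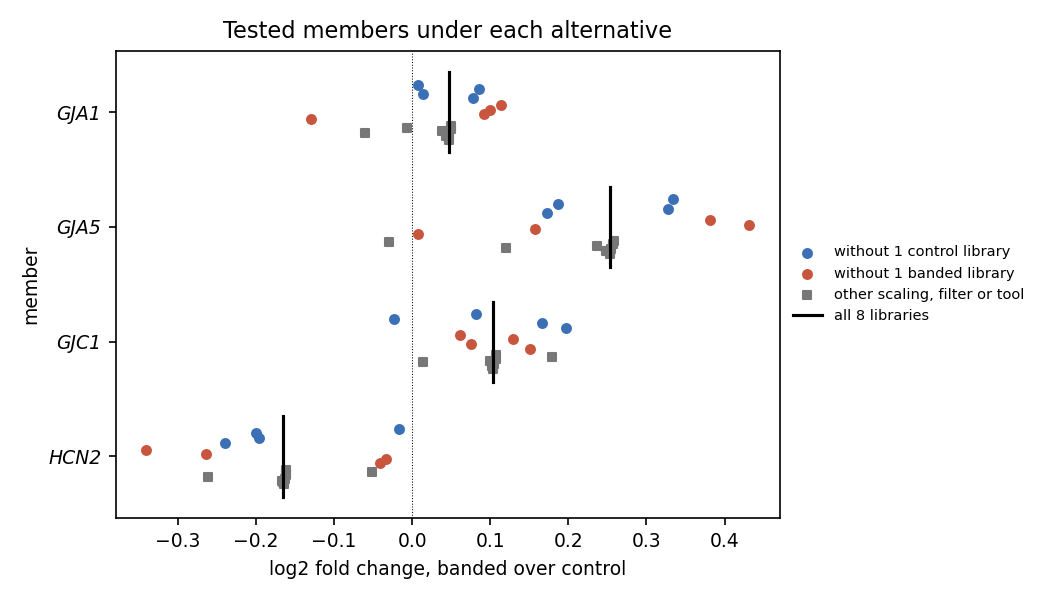
Log2 fold change of the 4 tested members with all 8 libraries (black line), without each library in turn (circles) and under other scalings, filters or tools (squares). GJA1 ranges from -0.13 to 0.11, GJA5 from -0.029 to 0.43, GJC1 from -0.023 to 0.20 and HCN2 from -0.34 to -0.016.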

How the data were processed

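Total RNA from right ventricular tissue of 4 control and 4 banded pigs was sequenced, 1 library per animal. The deposited counts are raw read pairs with both ends aligned, made by featureCounts 1.6.2 (mapping quality at least 10, strand setting 2, Ensembl release 106 of Sscrofa11.1), per the file headers. The counting command lists 24 libraries, and only these 8 were used. HISAT2, Trimmomatic, Subread and DESeq2 appear in the submitters' processing notes with no version. The length column deposited by the authors, another column of the count table, is the summed exon length and was used for RPKM. The authors' deposited comparison holds log2 fold changes of control over banded with their errors, the mean signal after normalisation, the Wald score and p-values before and after adjustment. The model behind it is not given in the sources used here.

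Symbols came from the deposited comparison (gene name for 14955 models, one-to-one human name for 661) and otherwise from a table of gene names (600). Exon overlap was computed from the exon coordinates of the count table. Genes were kept by filterByExpr (minimum count 10, minimum total 15), scaled by TMM and tested in edgeR 4.0.16 by quasi-likelihood (robust, two-sided, R 4.3.3), with Benjamini-Hochberg adjustment over 13697 genes. The standard error was the size of the log2 fold change over the square root of F, and intervals are 95%. The exact permutation test was run on log2 CPM (prior count 2) of 6 members. The labels give no pairing and no batch. The test was also run on simulated counts with known changes of 1.5-fold or more. Its outcome is not given here and does not bear on smaller changes. The alternatives tried were limma-voom with sample quality weights (limma 3.58.1), DESeq2 1.42.0, other scalings and filters, no robust estimation, no mitochondrial-genome genes, a test against a 1.5-fold change, a prior count of 0.5, and leaving out each library.

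All 8 members were described, and from each list of related genes up to 6 called genes and the most abundant, and from each cell type list up to 2 called genes. The rule for genes most like a called member gave none, as no member was called. The members and lists were chosen with earlier results of these data known. CPM and RPKM are given as mean ± SD over 4 animals. Some related genes and the beta subunit shares that need them are not reported here. No member sequence is shown.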

Additional observations from a re-analysis of the deposited data

Results flagged for a closer look

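A library was singled out where its distance from the nearest of the other 3 of its group exceeded 0.829 of the group's range. This was asked of 32 groups of values. For normally distributed values, chance alone singles out about 1 in 20 groups. That rate does not hold for groups of few counts with ties, such as those of SCN2B and HCN4.

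Banded 1 stood apart for SCN4B (1.04 CPM against 0.0309 to 0.171 CPM in the other banded animals) and for HCN4 (0.221 CPM against 0 CPM). Banded 4 stood apart for GJA1 (354 CPM against 226 to 237 CPM) and, on 5 counts, for SCN2B (0.174 CPM against 0 CPM). Control 3 stood apart for SCN2B only because it had 0 counts where the other controls had 1 each.

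Among summed cell type markers, control 1 (466 CPM against 386 to 393 CPM) and banded 1 (555 CPM against 732 to 744 CPM) stood apart for the atrial list, and control 3 (1540 CPM against 1180 to 1210 CPM) for the smooth muscle and pericyte list. Banded 2 stood apart for skeletal muscle markers (238 CPM against 10.2 to 35.9 CPM). None of these was tested as a cause of a member's value.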

How the results depend on the processing

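None of the 4 tested members was called under any of 17 alternatives, with adjusted p of 0.604 to 0.988 for GJA1, 0.303 to 0.9898 for GJA5, 0.567 to 0.976 for GJC1 and 0.600 to 0.986 for HCN2. HCN2 kept its negative sign in all 17. The log2 fold change of GJA1 turned to -0.0070 in limma-voom, -0.060 with library size alone and -0.13 without banded 4 (-0.13 to 0.11 over all left-out libraries). That of GJA5 turned to -0.029 in limma-voom and that of GJC1 to -0.023 without control 2 (-0.023 to 0.20). GJA4 turned to -0.20 in limma-voom, -0.094 with library size alone, -0.076 without control 4 and -0.19 without banded 3 (-0.19 to 0.16). Among called related genes and markers, PEX5L, TBX3, ITGA7, PI16, MYL2, PAM and NGFR kept their calls in all 17. The 17 leave out the test against a 1.5-fold change, which was counted over all genes only. Library size alone moved the median of all tested genes to -0.085 from 0.015. The 954 genes called overall became 1629 with DESeq2, 148 against a 1.5-fold change, and 399 to 962 without 1 library. With library size alone 303 of 811 calls were higher, against 475 of 954. With a prior count of 0.5 the permutation test called no member either. The causes were not tested. No paired analysis was possible because the labels give the groups no shared replicate numbers. SCN4B and HCN4, at 0 to 33 and 0 to 7 counts, stayed below the filter, and the gene models limit SCN2B and SCN3B.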

Other observations

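Other markers that moved beside the members included NGFR, a nerve growth factor receptor gene of the Schwann and neuronal list, which rose from 1.91 ± 0.274 CPM in controls to 5.57 ± 2.10 CPM in banded animals (SD, n = 4, edgeR adjusted p = 0.0125) and kept its call in all 17 alternatives. The Schwann and neuronal markers as a whole summed to 39.2 to 56.4 CPM in controls and 35.1 to 51.0 CPM in banded animals, with 1 of 9 tested called higher and 0 lower. MYL2, the ventricular myosin regulatory light chain gene, rose to 17465 ± 2543 CPM from 9264 ± 1354 CPM (adjusted p = 0.0113) while GJA1 of the same muscle was at 254 ± 21.7 and 263 ± 61.1 CPM. NR2F1, a transcription factor of atrial muscle and other cell types, fell to 2.51 ± 0.665 CPM from 5.83 ± 1.14 CPM (adjusted p = 0.0175), and missed the threshold without control 1 (0.0603) or control 2 (0.0644). Of 11 tested ventricular muscle markers edgeR called 2 higher and 0 lower (5 called by DESeq2 and 4 by limma-voom), where it called 6.97% of all tested genes. At an unadjusted p under 0.05 in edgeR the count was 7 of 11, against 23.8% of all tested genes. Skeletal muscle markers summed to 8.86 to 50.8 CPM in controls and 10.2 to 238 CPM in banded animals, with 0 of 4 tested called higher and 1 lower by edgeR (1 called by DESeq2 and 2 by limma-voom). The log2 fold change was positive in 3 of the 4, with a median of 1.00. The gene called lower was ACTN3, a fast-fibre alpha-actinin (adjusted p = 0.0287), whose call was lost without any 1 control, banded 2 or banded 4 (0.0524 to 0.0822).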
